A study of Drosophila melanogaster with 3 samples.

Results

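The peaks of Pita and ZIPIC on chromosome 4 and in assembled pericentromeric heterochromatin were taken by position alone, as every listed interval on the dm3 sequences 4, 2LHet, 2RHet, 3LHet, 3RHet and XHet. They numbered 375 of the 5815 intervals in the 2 lists. Chromosome 4 held 147 of them, 21 for Pita and 126 for ZIPIC, and the Het sequences held 228, 8 for Pita and 220 for ZIPIC. The groups were S2 chromatin precipitated with an antibody against Pita, S2 chromatin precipitated with an antibody against ZIPIC, and S2 input DNA, with 1 library each and no treatment of the cells. S2 is a permanent line derived from Drosophila embryos, so every value describes 1 line in culture. No value has a replicate, and samples made with the same antibody may have been pooled before sequencing. The lists carry no read numbers, so the depth behind each peak is unknown. According to the study's read table the ZIPIC library had more unique reads than the Pita library, and protein and depth cannot be told apart where the lists are compared.

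Pita and ZIPIC are zinc-finger proteins that bind DNA and bring the insulator cofactor CP190 to chromatin. Insulators limit which enhancers reach a promoter and where repressed chromatin ends. Chromosome 4 of Drosophila melanogaster is a very small autosome whose genes lie among repeats and which is covered, over most of its length, by heterochromatin protein HP1 while many of its genes are active. The Het sequences are the assembled pieces of the regions around the centromeres, rich in transposon remnants and satellite DNA and poor in genes. Only uniquely placed reads were kept by the authors, so stretches whose reads have no unique place give no signal. How much of each sequence can be read uniquely was not analysed here. The positions are those of dm3, counted from 1. No dm3 genome or annotation was used, so genes, repeats and motifs under the peaks were not analysed here, and whether chromatin at these positions was heterochromatic in S2 cells was not checked.

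On chromosome 4 the ZIPIC peaks stood close together and covered much more of the sequence than the Pita peaks did. The 126 ZIPIC intervals covered 80.3 kb, or 6.31% of the 1.27 Mb that ended at the last listed peak, and the 21 Pita intervals covered 13.4 kb, or 1.05%. For comparison, on the 5 long arms (X and both arms of chromosomes 2 and 3) the ZIPIC coverage ran from 0.814% on X to 1.17% on 2R, and that of Pita from 0.644% on X to 0.843% on 2R. ZIPIC density was 99.0 peaks per Mb on chromosome 4, and no arm exceeded 25.8 per Mb. The Pita density of 16.5 per Mb was below the lowest arm, X, with 20.8 per Mb. ZIPIC thus lay above the range of the arms in number and in coverage, whereas Pita lay below it in number and above it in coverage.

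The ZIPIC peaks of chromosome 4 were spread over its whole length but unevenly. Each of 13 consecutive windows of 100 kb (the last one shorter) held at least 2 ZIPIC peaks. The fullest windows were within the middle of the length, with 17 peaks between 400001 and 500000, 18 between 500001 and 600000, 23 between 700001 and 800000 and 15 between 800001 and 900000. The first window held 2 and the last one 2. From 300001 to 900000, a stretch chosen after these counts were seen, there were 91 of the 126 ZIPIC peaks (72.2%) and 14 of the 21 Pita peaks. Within it the windows from 300001 to 400000 and from 600001 to 700000 held 9 ZIPIC peaks each, the median of the 13 windows, and no Pita peak. The last window held no Pita peak either.

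**Figure D1:**
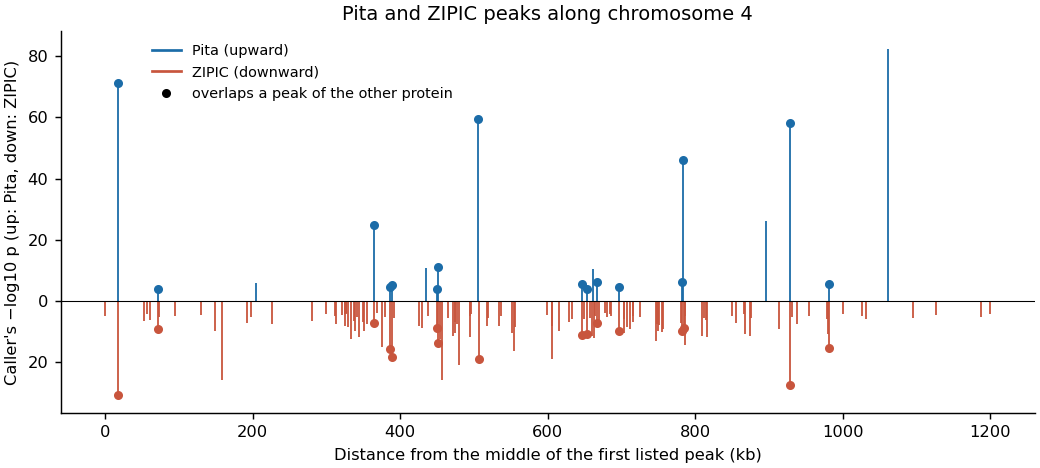
Each line is 1 peak on chromosome 4, placed by the distance of its middle from the first listed peak (kb), with the caller's −log10 p drawn upward for Pita (21 peaks) and downward for ZIPIC (126 peaks); dots mark peaks that overlap one of the other protein. Pita strengths run from 4.03 to 82.5, with 11 of the 21 peaks under 10, and ZIPIC peaks are densest in the middle.

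The 21 Pita peaks of chromosome 4 fell into 7 strong ones, 3 of middle strength and 11 weak ones. Strength is the caller's −log10 p over input, which starts near 4 in both lists because no peak with a larger p was listed, and its size is compared here only within a list. For overlapping pairs the order of the 2 listed p is also given, as listed. The classes used below, under 10, from 10 to under 20, and 20 and above, were chosen after the values were seen. Of the Pita peaks on chromosome 4, 16 of 21 (76.2%) had p under 1e-05, against 86.7% of the whole Pita list. Their median strength of 6.21 lay below the medians of the 5 arms, which ran from 10.3 on 2R to 16.3 on 3R.

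The strongest Pita peak of chromosome 4 lay at 1133424 to 1133844, with a −log10 p of 82.5 and rank 57 in the whole list, and had no ZIPIC peak within 29650 bp. The next, at 89224 to 90008, had a −log10 p of 71.4 and rank 104. It contained nearly all of the strongest ZIPIC peak of the chromosome, at 89218 to 89477 (−log10 p 30.8, rank 190 for ZIPIC). These 2 Pita peaks near opposite ends of the occupied length thus differed in whether ZIPIC was listed beside them. A Pita peak at 577948 to 578839 had a −log10 p of 59.5 and one at 1000343 to 1001007 had 58.2. Both held a narrower ZIPIC peak wholly within them, at 578427 to 578831 (18.9) and at 1000603 to 1000955 (27.5). Pita at 856177 to 856664 reached 46.2 and enclosed a ZIPIC peak of 136 bp, the narrowest on the chromosome, at 856501 to 856636 (8.91). The last strong Pita peaks were at 968378 to 968580 (26.1), which had no ZIPIC peak within 16308 bp, and at 436186 to 436996 (24.8), which enclosed a ZIPIC peak at 436204 to 436699 (7.30). So 5 of the 7 strong Pita peaks were shared, and in each of the 5 the Pita interval was the wider one.

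Of the 3 Pita peaks of middle strength, only the one at 523054 to 523638 (−log10 p 11.3) overlapped ZIPIC, in an interval of similar width shifted to 523297 to 523817 (13.8). The others lay near ZIPIC without touching it. Pita at 507274 to 507440 (10.8) was 1988 bp from the nearest ZIPIC peak, and Pita at 733530 to 733950 (10.4) was 577 bp from it.

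The 11 weak Pita peaks, with −log10 p from 4.03 to 6.21, nearly all sat in a ZIPIC peak. The exception was at 276190 to 276830 (6.02), which was 6228 bp from ZIPIC. In 5 of the other 10 (50%) both edges of the intervals agreed within 100 bp. On the arms this held for 266 of 474 pairs with a weak Pita peak (56.1%), so such agreement was not particular to chromosome 4. The closest match was the short pair at 718205 to 718350 for Pita (5.49) and 718199 to 718352 for ZIPIC (11.1), whose edges differed by 6 and 2 bp. The widest was at 460159 to 461867 for Pita (5.23) and 460138 to 461908 for ZIPIC (18.3), with edges 21 and 41 bp apart. The remaining matched pairs had Pita at 142966 to 143994 (4.08) with ZIPIC at 142997 to 144024 (8.97), Pita at 724508 to 725311 (4.08) with ZIPIC at 724447 to 725395 (10.6), and Pita at 739337 to 739491 (6.16) with ZIPIC at 739342 to 739505 (7.25). The matched Pita intervals were 146 to 1709 bp wide, so both the narrowest and the widest Pita peak of the chromosome were among them.

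The other 5 weak Pita peaks on chromosome 4 matched ZIPIC at 1 end. Pita at 1053522 to 1054906 (5.58) started 14 bp from ZIPIC at 1053536 to 1055021 (15.2) and ended 115 bp from its end. Pita at 458023 to 459075 (4.77) started 11 bp from ZIPIC at 458034 to 459517 (15.6). At the other end, Pita at 522373 to 522535 (4.03) ended 3 bp from ZIPIC at 522083 to 522538 (8.84), Pita at 854743 to 855032 (6.21) ended 12 bp from ZIPIC at 854470 to 855044 (9.86), and Pita at 768985 to 769559 (4.69) ended 67 bp from ZIPIC at 767984 to 769626 (9.72). In all 10 pairs with a weak Pita peak the listed ZIPIC p was the smaller one, and the ZIPIC interval was the wider one in all but the pair at 142966, where Pita was wider by 1 bp. Among the 5 strong pairs no ZIPIC p was smaller. On the arms the ZIPIC p was smaller in 377 of 474 weak pairs and in 107 of 611 strong pairs. There the Pita interval was the wider one in 86 of the weak and 300 of the strong pairs. The classes are cut on the Pita p itself, which by itself favors a smaller ZIPIC p in weak pairs and a larger one in strong pairs. A p depends on depth as well as on enrichment, so these orders do not compare the amounts of the proteins.

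**Figure D2:**
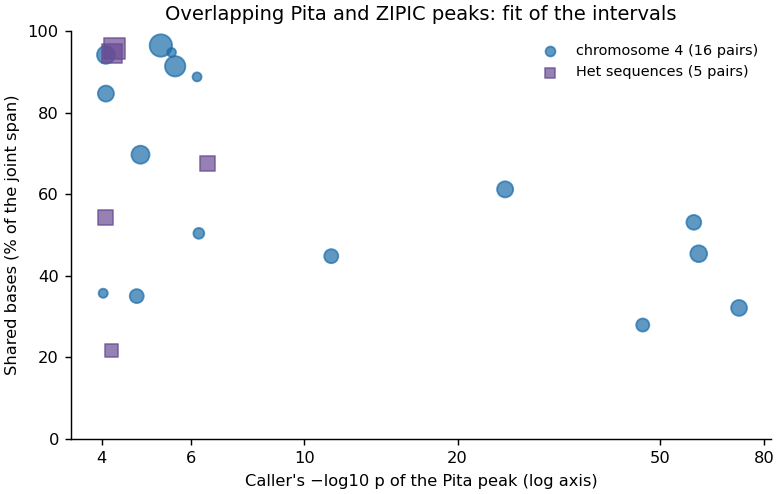
Each point is 1 overlapping pair on chromosome 4 (16 pairs, circles) or the Het sequences (5 pairs, squares); the x axis is the −log10 p of the Pita peak on a log axis, the y axis the shared bases as a percentage of the joint span of both intervals, and larger points are wider Pita peaks. Pairs with Pita −log10 p of 20 and above lie between 27.9% and 61.2%, and those under 10 between 21.6% and 96.5%.

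The fit of the intervals can be put as the bases shared by a pair in percent of the span that both cover. Over the 10 weak pairs of chromosome 4 the median was 86.7%, with a range from 35.0% to 96.5%. Over the 5 strong pairs it was 45.4%, with a range from 27.9% to 61.2%, and their middles lay 104 to 268.5 bp apart. The 2 ranges overlapped. On the arms the medians were 76.0% for 474 weak pairs and 68.2% for 611 strong pairs, so strong pairs fitted less closely there too, by a smaller margin. The 16 shared Pita peaks were 76.2% of those on chromosome 4 (95% exact binomial interval 52.8 to 91.8, which covers counting error alone), while the share was 48.9% of the whole Pita list. With middles within 100 bp as the rule it was 28.6%, below the 33.3% of the arms under the same rule, so the order of chromosome 4 and the arms depended on how overlap was defined. Among weak Pita peaks alone 10 of 11 were shared (90.9%, interval 58.7 to 99.8), and on the arms the same class gave 41.7%, from 36.8% on 2L to 44.8% on X. ZIPIC intervals covered 6.31% of chromosome 4 and 0.992% of the arms. The weak Pita peaks of chromosome 4 were also wider, at a median of 641 bp against 221 bp on the arms. Over chromosome 4 and the Het sequences together, 10 of 11 weak Pita peaks of 500 bp or more (90.9%) were shared. Of the narrower weak ones 5 of 6 were shared (83.3%). The arms gave 50% and 40.6% for the same 2 width classes. The part of ZIPIC coverage and of width in these shares was not tested.

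The Pita peaks of chromosome 4 were wide for this protein. Their widths ran from 146 to 1709 bp with a median of 585 bp, whereas the medians of the 5 arms ran from 249 bp on 3L to 281 bp on 2L. Over 1000 bp there were 4 of 21 (19.0%, interval 5.45 to 41.9), against 1.37% of the whole list. All 4 were weak, with −log10 p from 4.08 to 5.58, and lay at 142966, 458023, 460159 and 1053522. The 7 strong peaks stayed between 203 and 892 bp. The median width was 641 bp for the weak and 665 bp for the strong Pita peaks of this chromosome, against 221 and 324 bp on the arms.

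Pita peaks on chromosome 4 lay a median of 38584 bp apart, measured from the end of a peak to the start of the next. The range over the 5 arms was from 19161 bp on 2R to 25687.5 bp on X. The longest Pita gaps were 159.4 kb from 276831 to 436185, 139.4 kb from 578840 to 718204 and 132.2 kb from 143995 to 276189. Against these stood 3 close couples, with gaps of 518 bp at 522536, 1083 bp at 459076 and 1144 bp at 855033. Both peaks of each couple overlapped ZIPIC, and no 3 Pita peaks followed each other within 5 kb.

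ZIPIC peaks on chromosome 4 were closely packed. Of the 125 gaps between neighbors, 72 (57.6%) were 5 kb or less and none exceeded 100 kb. The median gap was 3500 bp, with quartiles of 1452 and 10977 bp, against medians from 15743 bp on 2R to 22910 bp on 3R. The shortest gap was 61 bp. The 3 longest were 63.3 kb from 1103774 to 1167071, 60.6 kb from 1199499 to 1260144 and 53.5 kb from 298719 to 352258, so 2 of them lay toward the far end of the occupied length. The Pita peak with the highest strength of the chromosome fell in the longest ZIPIC gap.

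**Figure D3:**
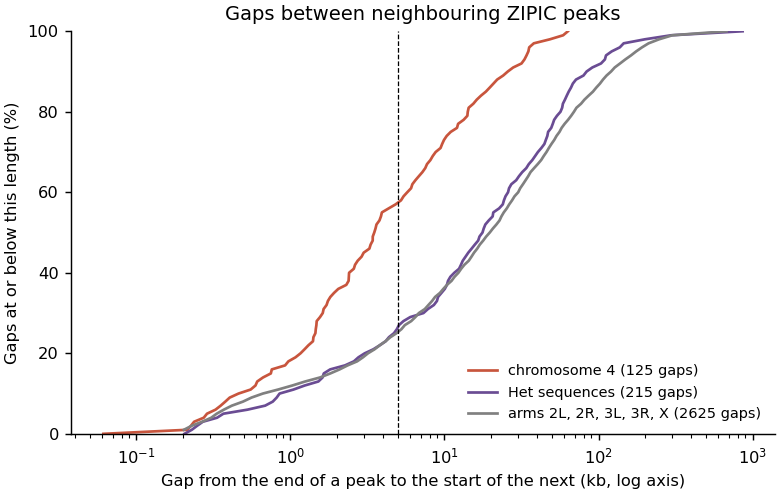
The curves give the percentage of gaps between neighboring ZIPIC peaks (y axis) at or below each length (x axis, kb, log axis) on chromosome 4, on the Het sequences and on the 5 arms; the dashed line marks 5 kb. At 5 kb the chromosome 4 curve stands at 57.6% and the Het and arm curves at 27.0% and 25.4%.

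A cluster was defined as 3 or more peaks of a list with gaps of 5 kb or less. Chromosome 4 had 14 ZIPIC clusters with 72 of its 126 peaks (57.1%, interval 48.0 to 65.9). Peaks enter clusters in runs, and the intervals of cluster shares treat them as independent. These intervals may thus be too narrow even for counting error. On the 5 arms the share of ZIPIC peaks in clusters ran from 12.2% on 3R to 20.6% on X. The clusters of chromosome 4 spanned 144.9 kb together, or 11.4% of the length, against 0.613% on the arms, and were from 2.27 to 34.7 kb long. Within these spans lay 11 of the 21 Pita peaks of the chromosome (52.4%), against 8.43% of the Pita peaks on the arms. The wider spans leave more room for a Pita peak, and this was not corrected for.

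The largest cluster ran from 392624 to 427360 and held 14 ZIPIC peaks over 34.7 kb, with no Pita peak inside. No ZIPIC cluster on the arms had more than 7 peaks. Its peaks were of low to moderate strength, with −log10 p from 4.04 to 12.3, and 24.5% of its bases were covered. The second, from 718199 to 741587, held 9 ZIPIC peaks over 23.4 kb and 4 Pita peaks, 3 of the ZIPIC peaks being shared. None of its peaks was over 1000 bp wide. Clusters of 6 peaks lay at 775167 to 788862 and at 819169 to 828968, again with no Pita peak and no interval over 1000 bp. Clusters of 5 lay at 543203 to 552377, without Pita, and at 853623 to 859636, with 2 Pita peaks. The cluster at 543203 was the more densely covered of these, at 47.2%, and ended in the widest ZIPIC peak of the chromosome.

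The strongest ZIPIC peaks of chromosome 4 were of 2 sizes. Of the 10 strongest, 4 were under 500 bp and 6 were over 1000 bp, with none between. The short ones were the peaks at 89218, 1000603 and 578427 already described as lying in strong Pita peaks, and one of 198 bp at 230707 to 230904 (−log10 p 25.7, rank 277), which was 45285 bp from Pita. The long ones were at 527440 to 529356 (1917 bp, −log10 p 25.8), 550360 to 552377 (2018 bp, 20.8), 676846 to 678288 (1443 bp, 19.0), 460138 to 461908 (1771 bp, 18.3), 625789 to 627243 (1455 bp, 16.2) and 458034 to 459517 (1484 bp, 15.6). The latter pair, at 458034 and 460138, were neighbors and both held a weak Pita peak. None of the other 4 long ones overlapped Pita. All 6 were also among the 10 widest ZIPIC peaks of the chromosome. The other 4 of the 10 widest were at 767984 to 769626 (1643 bp, 9.72), 1053536 to 1055021 (1486 bp, 15.2), 446606 to 448040 (1435 bp, 15.0) and 127684 to 129111 (1428 bp, 4.30).

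ZIPIC widths on chromosome 4 had a median of 552 bp, with quartiles of 343.8 and 848.5 bp, and the medians of the arms ran from 263 bp on X to 387 bp on 3L. Over 1000 bp there were 21 of 126 (16.7%, interval 10.6 to 24.3), against 9.94% of the whole ZIPIC list and at most 8.43% on an arm. Of the 126 ZIPIC peaks, 98 (77.8%) had p under 1e-05, against 77.6% of the list, a share close to that of the list. At stricter limits the shares were lower than in the list, with 33 (26.2%) under 1e-10 against 35.4%, and 5 (3.97%) under 1e-20 against 14.1%. The 16 that overlapped Pita had −log10 p from 7.25 to 30.8 with a median of 10.8, and the 110 others from 4.03 to 25.8 with a median of 6.73, so no ZIPIC peak of this chromosome with a −log10 p under 7 was shared. The shared ones were 12.7% of the ZIPIC peaks on chromosome 4, against 43.9% of the whole list, a share limited by the 21 Pita peaks present. The median widths of these sets were 508.5 and 553.5 bp.

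On the Het sequences ZIPIC peaks were less crowded than on chromosome 4 but wider. There were 54 on 2RHet (16.7 per Mb), 89 on 3LHet (35.1 per Mb) and 67 on 3RHet (26.6 per Mb), and 5 each on the short sequences 2LHet and XHet. The density of 2RHet was below the arms' range, which began at 19.4 per Mb on 2L, and those of 3LHet and 3RHet above its highest value of 25.8 per Mb. Together the 220 intervals covered 201.0 kb, or 2.31% of the 8.70 Mb of the 5 sequences. Coverage ranged from 1.39% on 2RHet to 3.26% on 3LHet, so even the least dense of them was above the highest arm, 1.17%.

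The occupied stretches differed between the 3 long sequences. On 2RHet, 15 of 33 windows of 100 kb held no ZIPIC peak. The longest gap there was 862.3 kb, from 589878 to 1452193, and the next were 523.8 kb, from 1923437 to 2447243, and 301.1 kb, from 1571329 to 1872425. These were the 3 longest of all Het gaps. The 8 consecutive windows from 600001 to 1400000 were all empty. On 3LHet only 2 of 26 windows were empty, and 9 peaks stood in each of the windows from 2200001 to 2300000 and from 2400001 to 2500000. On 3RHet 3 of 26 windows were empty and none held more than 6. Unreadable repeats and unoccupied DNA cannot be told apart in the empty stretches.

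**Figure D4:**
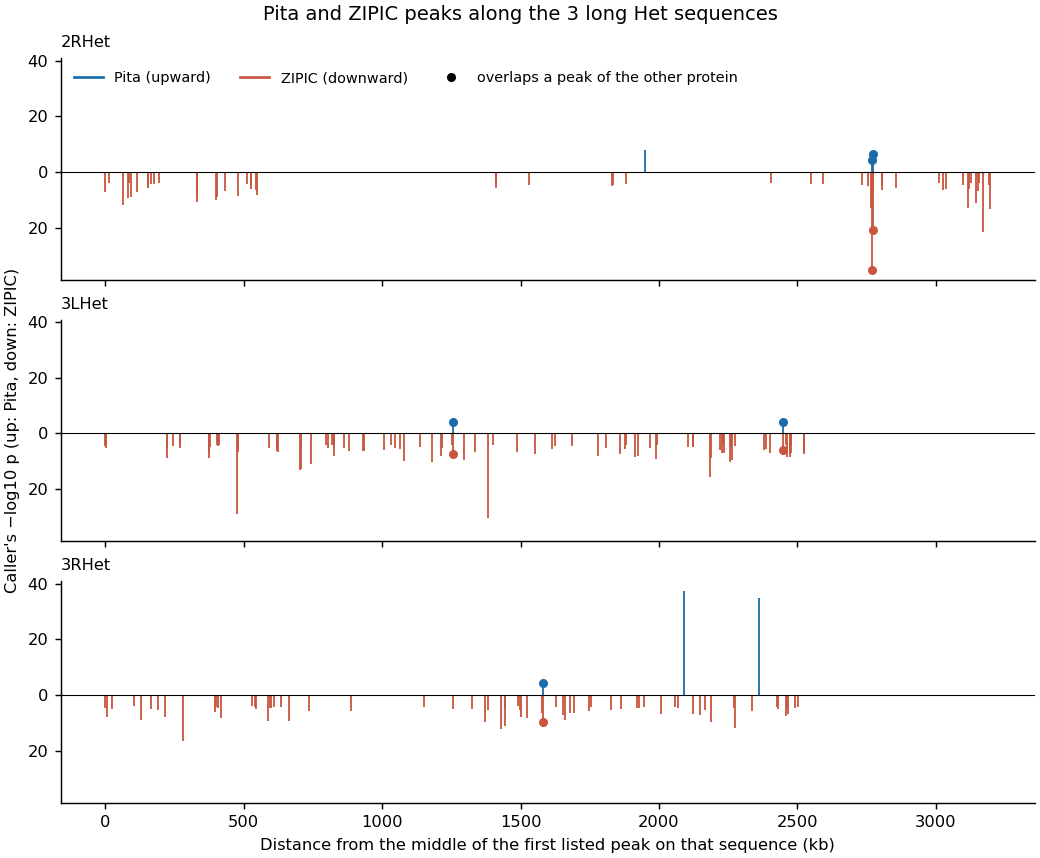
Peaks on 2RHet, 3LHet and 3RHet, 1 line each, placed by distance from the first listed peak of that sequence (kb), with the caller's −log10 p upward for Pita (3, 2 and 3 peaks) and downward for ZIPIC (54, 89 and 67 peaks); dots mark overlap. ZIPIC peaks leave a gap of 862.3 kb on 2RHet, and the tallest Pita lines, on 3RHet, carry no dot.

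Spacing on the Het sequences was close to that of the arms when all listed peaks were used. The median gap between ZIPIC peaks was 17651 bp (quartiles 4701 and 47083 bp), within the arms' range of medians from 15743 to 22910 bp. With p under 1e-05 it was 34236 bp, above the range of the arms at that limit, which ran from 20563 bp on 2R to 28000 bp on 3R. Of 215 gaps, 58 (27.0%) were 5 kb or less, against 22.2% on 3R to 28.0% on X. By sequence the median was 14808 bp on 2RHet, 14733 bp on 3LHet and 24081.5 bp on 3RHet, the former pair below the arms' range and 3RHet above it. There were 11 clusters with 35 of the 220 peaks (15.9%, interval 11.3 to 21.4), also within the arms' range. Of these, 8 clusters with 25 peaks were on 3LHet, or 28.1% of its peaks, above the highest arm, X, at 20.6%. On 2RHet and 3RHet the shares were 7.41% and 8.96%, both below the lowest arm.

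The cluster on 2RHet from 2808009 to 2813876 held the strongest ZIPIC peak and 3 of the 10 strongest ZIPIC peaks of the Het sequences, and it was the only Het cluster with Pita. Its 4 ZIPIC peaks covered 77.1% of 5.87 kb. They included the peaks at 2808009 to 2809287 (1279 bp, −log10 p 12.8), at 2810092 to 2812074 (1983 bp, 35.1, rank 141) and at 2812396 to 2813462 (1067 bp, 21.0). Pita peaks overlapped the latter pair, at 2811645 to 2812086 (4.19) and at 2812704 to 2813423 (6.45), with ends 12 and 39 bp from those of ZIPIC. The other cluster of 4 was on 3LHet from 2484633 to 2491524, with −log10 p up to 8.38 and no Pita. The 9 clusters of 3 peaks, 7 on 3LHet and 2 on 3RHet, were 3.31 to 9.68 kb long, and 6 of them held a peak over 1000 bp.

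Het ZIPIC peaks were wide. The median width was 837.5 bp, the lower quartile 548.5 bp and the upper 1219.2 bp. It was 784.5 bp on 2RHet, 839 bp on 3LHet and 840 bp on 3RHet, more than the highest arm median of 387 bp in each case. Over 1000 bp there were 76 of 220 (34.5%, interval 28.3 to 41.2), against 9.94% of the whole ZIPIC list, and these held 55.5% of the bases covered. By sequence the share was 29.6% on 2RHet, 37.1% on 3LHet and 32.8% on 3RHet, while no arm exceeded 8.43%. Over 2000 bp there were 7.

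The stronger a Het ZIPIC peak was, the wider it tended to be, a relation that was faint on the arms. Between −log10 p of 4 and 5 the median width of 78 peaks was 617.5 bp and 11.5% were over 1000 bp. From 5 to 7 it was 816.5 bp over 74 peaks, with 24.3% over 1000 bp. From 7 to 10 it was 1280 bp over 45 peaks, with 71.1%, and from 10 to 20 it was 1507.5 bp over 18 peaks, with 72.2%. The 5 peaks at 20 and above had a median of 1983 bp. On the arms the first 4 classes had medians from 315.5 to 337 bp, and between 6.23% and 6.71% of their peaks were over 1000 bp. Arm peaks at 20 and above, 416 in number, were wider, with a median of 427.5 bp and 9.13% over 1000 bp. At a −log10 p of 7 and above, 49 of 68 Het ZIPIC peaks were over 1000 bp (72.1%, interval 59.9 to 82.3), with 66.7% on 2RHet, 71.4% on 3LHet and 73.7% on 3RHet. In that class no arm exceeded 8.62%. The limit of 7 falls at the largest step between the Het classes, from 24.3% to 71.1%, so the contrast at this limit depends on where it was set. The weakest Het peaks were also wider than arm peaks of like strength.

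At a −log10 p of 7 and above chromosome 4 lay between the Het sequences and the arms. In that class 18 of its 67 ZIPIC peaks were over 1000 bp (26.9%, interval 16.8 to 39.1), and below 7 there were 3 of 59 (5.08%), which is within the range of the arms, 2.63% to 8.21%. Its 5 peaks at 20 and above had a median of 353 bp, less than the 427.5 bp of the arms. Yet 2 of these 5 (40%) were over 1000 bp, against 9.13% on the arms, so the order depended on the measure. Spearman's rho of width and strength was 0.421 over the 126 peaks of chromosome 4 and 0.579 over the 220 Het peaks. On single arms it ran from 0.0597 on 3L to 0.192 on X. These coefficients are descriptions across peaks of 1 library, and width and p come from the same reads.

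**Figure D5:**
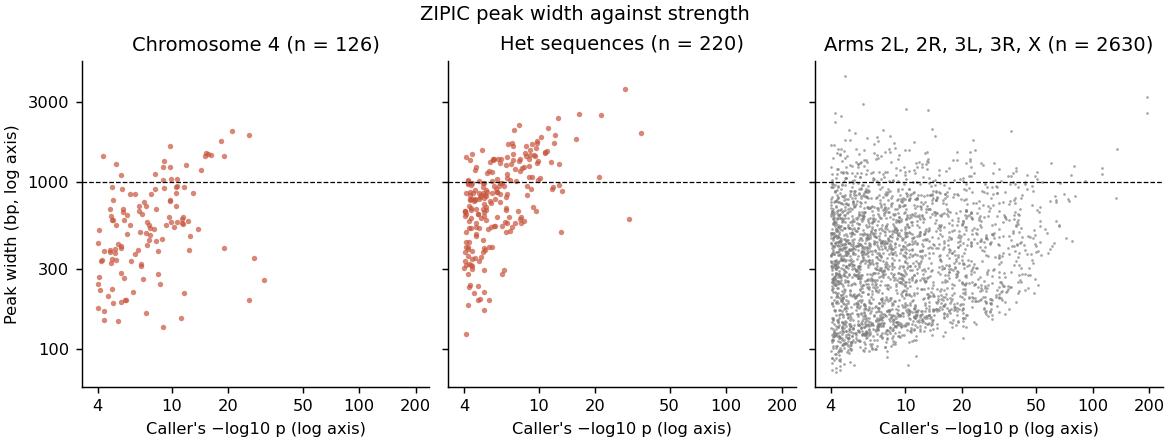
Each point is 1 ZIPIC peak, with the caller's −log10 p on the x axis and width in bp on the y axis, both log axes, on chromosome 4 (126), the Het sequences (220) and the 5 arms (2630); the dashed line marks 1000 bp. On the Het sequences the points climb past 1000 bp as strength grows, so that 72.1% of those at 7 and above are over it, and on the arms they stay at all widths.

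The strong and the wide Het ZIPIC peaks came from all 3 long sequences. Apart from the 3 peaks of that cluster on 2RHet, the strongest were at 1396464 to 1397063 on 3LHet (600 bp, −log10 p 30.4, rank 196) and at 485533 to 489162 on 3LHet (29.0, rank 218). The latter, at 3630 bp, was the widest of all Het peaks. Next among the others were 3211188 to 3213707 on 2RHet (2520 bp, 21.5), 296204 to 298772 on 3RHet (2569 bp, 16.5), 2195278 to 2197088 on 3LHet (1811 bp, 15.8), 3238027 to 3238906 on 2RHet (880 bp, 13.3) and 715470 to 715969 on 3LHet (500 bp, 13.2). The nearest Pita peak was 124718 bp or more from each of these 7. None of the 10 strongest Het ZIPIC peaks was under 500 bp, against 4 of the 10 strongest on chromosome 4. Over 1000 bp there were 7, against 6 on chromosome 4. Further wide ones were at 717588 to 720002 on 3LHet (2415 bp, −log10 p 12.6), at 20136 to 22320 (2185 bp, 7.88), 1457068 to 1459173 (2106 bp, 11.2) and 1442302 to 1444206 (1905 bp, 12.2) on 3RHet, at 153456 to 155501 on 2RHet (2046 bp, 7.37) and at 1190841 to 1192704 on 3LHet (1864 bp, 10.3).

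In strength the Het ZIPIC peaks were low. Of 220, 142 (64.5%) had p under 1e-05, against 77.6% of the whole list, and no arm was below 75.6%. The share was 59.3% on 2RHet, 71.9% on 3LHet and 58.2% on 3RHet. Under 1e-10 there were 23 (10.5%), against 35.4% of the list. Under 1e-20 there were 5 (2.27%), on 2RHet and 3LHet alone, against 14.1% of the list.

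The 2 short sequences carried ZIPIC only. On 2LHet the peaks were at 20972 to 21377 (406 bp, −log10 p 5.11), 154027 to 154846 (820 bp, 4.88), 165580 to 166904 (1325 bp, 11.7), 192420 to 193451 (1032 bp, 9.88) and 256256 to 257980 (1725 bp, 12.1). The 3 strongest of these were also the 3 widest. On XHet all 5 were weak, at 1719 to 2301 (583 bp, 4.23), 12382 to 12998 (617 bp, 6.00), 22841 to 23159 (319 bp, 4.10), 84758 to 86138 (1381 bp, 6.04) and 144029 to 145398 (1370 bp, 5.73). The gaps on these sequences, from 9842 bp to 132.6 kb, were all longer than 5 kb.

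The 8 Pita peaks of the Het sequences were 2 strong ones without ZIPIC and 6 weak ones, of which 5 overlapped ZIPIC. The strong ones were both on 3RHet and narrow, at 2107116 to 2107388 (273 bp, −log10 p 37.3, rank 576) and at 2378125 to 2378556 (432 bp, 34.9, rank 633). ZIPIC was 21391 and 26742 bp away. The weak Pita peak without ZIPIC, at 1992704 to 1992874 on 2RHet (171 bp, 8.01), was 69267 bp from it, within the second longest ZIPIC gap. The other 5 had −log10 p from 4.07 to 6.45 and all overlapped ZIPIC peaks, namely the 2 in the 2RHet cluster and 3 on 3LHet and 3RHet. On 3LHet, Pita at 1270160 to 1271745 (4.24) matched ZIPIC at 1270125 to 1271779 (7.28) within 35 bp at either edge. Pita at 2461848 to 2462590 (4.07) ended 26 bp from ZIPIC at 2461249 to 2462616 (5.77). On 3RHet, Pita at 1594797 to 1596055 (4.19) and ZIPIC at 1594738 to 1596042 (9.75) differed by 59 and 13 bp.

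Of the Het Pita peaks 4 of 8 had p under 1e-05, against 86.7% of the list. Over 1000 bp there were 2 of 8 (25%, interval 3.19 to 65.1), against 1.37% of the list. The 5 shared ones were 62.5% of the 8 (interval 24.5 to 91.5), against 48.9% of the Pita list. The 5 ZIPIC peaks with Pita were 2.27% of the 220, against 43.9% of the ZIPIC list, a share limited by the 8 Pita peaks present. Those 5 ZIPIC peaks were 1067 to 1983 bp wide, with a median of 1368 bp against 821 bp for the 215 others. With both lists limited to p under 1e-05, 1 of 4 Pita peaks (25%) and 0.704% of the ZIPIC peaks on the Het sequences were shared. On chromosome 4 it was 11 of 16 Pita peaks (68.8%). At that limit 45.6% of the Pita and 51.1% of the ZIPIC peaks on the arms were shared. With all listed peaks, 5 of 6 weak Pita peaks of the Het sequences overlapped ZIPIC (83.3%, interval 35.9 to 99.6) and 0 of 2 strong ones did (interval 0 to 84.2). On chromosome 4 it was 10 of 11 weak (90.9%, interval 58.7 to 99.8) and 5 of 7 strong ones (71.4%, interval 29.0 to 96.3). In each place the 2 intervals overlap. On the arms the order was the other way, with 41.7% of 1137 weak and 57.0% of 1071 strong Pita peaks shared. The strong share of chromosome 4 was thus above that of the arms, which lay within its interval. The same input DNA served as control for each list, and its part in the matching edges was not tested.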

How the data were processed

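Pita, ZIPIC and input DNA from S2 cells were sequenced as 1 library each. Per the study's methods, the authors used Bowtie to map reads to dm3, kept unique reads with an unambiguous place and called peaks with MACS and PeakRanger, with input DNA as control. The deposited lists are named for the ranger caller. The submitters' notes also name FastQC, SAMtools and the build hg19, and tool versions were not given in the sources used here. Each deposited list holds intervals with a p-value and a false discovery rate from the caller, and includes peaks above the p limit stated in the methods. The false discovery rate was not used. A few peaks on the arms listed with a p of 0 were set 1 unit above the highest finite −log10 p. Starts were read as 0-based and printed from 1.

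The members and lists were chosen with earlier results of these data known. Peaks were taken by sequence name. Lengths ended at the last peak of either list. Widths, gaps (end to next start), clusters (3 or more peaks, gaps of 5 kb or less) and overlaps (at least 1 bp) were counted, and shares have exact binomial (Clopper-Pearson) 95% intervals, which reflect counting error alone. For cluster shares they may be too narrow, since peaks enter clusters in runs. No test was made, since each protein had 1 library, and the ranges of the 5 arms stand beside the values. The rule for named peaks took every Pita peak, the shared ZIPIC peaks, the 10 strongest and 10 widest ZIPIC peaks in each place, the 5 largest clusters (ties summarized on the Het sequences) and the 3 longest gaps. The functions were tested on simulated lists. Alternatives changed the p limit, the overlap, the merging, the measure of gaps and the cluster gap. Leaving out a Het sequence and splitting Pita peaks by strength or width were chosen after seeing the data. The work was done in SciPy 1.17.1, pandas 2.3.3 and NumPy 2.4.6 under Python 3.11.15, with plots by matplotlib 3.10.9.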

Additional observations from a re-analysis of the deposited data

How the results depend on the processing

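Of 49 recomputed values, 37 stayed within the 95% binomial interval of the reported share or median and 12 moved out of it. At p under 1e-05 the Het sequences held 6.00% of ZIPIC peaks, with a median width of 969.5 bp, a median gap of 34236 bp and 0.704% overlapping Pita (1 peak of 142). The share of ZIPIC peaks overlapping Pita was 51.1% on the arms at that limit. Among the 1000 strongest, ZIPIC shares were 3% on chromosome 4 and 2.10% on the Het sequences. With middles within 100 bp, 28.6% of the Pita and 4.76% of the ZIPIC peaks of chromosome 4 were shared, against 33.3% and 34.2% on the arms. Cluster shares of ZIPIC follow the gap by construction, with 36.5% on chromosome 4 and 10.5% on the Het sequences at 2 kb, and 77.8% and 27.7% at 10 kb. For the other values that moved the cause was not tested. Leaving out 2RHet, 3LHet or 3RHet, added after the data were seen, gave 32.8% to 36.1% of Het ZIPIC peaks over 1000 bp. With 8 Pita peaks on the Het sequences the intervals are wide, and staying within them says little. No replicate could be left out, and no paired analysis was possible because each protein had 1 library.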

Other observations

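Unplaced sequence, gathered in dm3 under the name U, also carried wide ZIPIC peaks. Its 50 ZIPIC peaks had a median width of 819 bp. Over 1000 bp there were 22 of them (44%, exact binomial interval 30.0 to 58.7), against 9.94% of the whole ZIPIC list. The median −log10 p was 5.69. There were 7 Pita peaks on U, 1 of which overlapped ZIPIC (14.3%, interval 0.361 to 57.9), against 48.9% of the whole Pita list. On Uextra, which holds further unplaced scaffolds, 21 ZIPIC peaks had a median width of 409 bp. Of these, 14 overlapped Pita (66.7%, interval 43.0 to 85.4), against 43.9% of the whole ZIPIC list.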
